A study of Homo sapiens with 6 samples.

Results

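Antisense long noncoding RNA (lncRNA) loci are transcribed from the strand opposite a named gene, and 613 such loci were followed here in ARPE-19, a long-established line of human retinal pigment epithelium, together with the genes they are named after. The members were the rows of the deposited table that hold an annotated transcript, whose transcripts are all typed lncRNA and whose name ends in -AS or -AS with a number, apart from OIP5-AS1 and EPB41L4A-AS1. Of 60835 loci in the table, 1298 met that rule, and 613 of them had at least 12 counts in at least 3 of the 6 libraries. The other 685 were set aside for low counts. The cells, labelled wild type, were kept for 72 h in normal glucose medium (the Control group, 3 libraries) or high glucose medium (the HG group, 3 libraries). The labels give no glucose concentration, name no other agent and leave unsaid if libraries within a group are from different cultures, so a p-value here gauges spread among 6 libraries that could be technical. Each library is named below by its group and number.

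A natural antisense transcript runs in the opposite direction to its sense partner, from a start that may lie at the partner's promoter, within its body or beyond its end. Loci that point away from each other at their starts (head to head) can share a promoter region, and loci that run into each other (tail to tail) can form complementary RNA. Antisense lncRNAs are typically of low abundance, mostly kept in the nucleus and often trimmed by the RNA exosome, and individual ones are known to raise or lower their partner. The sources used here do not state whether counting used strand, so where the loci of a pair overlap, reads of the antisense locus and of its partner cannot be told apart, and each result on an overlapping pair carries that limit.

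The start regions of 5 antisense loci that the results below turn on are printed here, since they show how far the start of an antisense locus and that of its partner lie on the same stretch of DNA. Each window runs from 250 bases before to 50 bases after the RefSeq start in GRCh38.p14, 5′ to 3′ on the antisense strand. In the deposited coordinates a counted locus can start elsewhere. STARD4-AS1 starts before its window there, 2194 bases from the start of STARD4. Capitals mark the bases that also lie in the 300-base window of the partner.
SRRM2-AS1: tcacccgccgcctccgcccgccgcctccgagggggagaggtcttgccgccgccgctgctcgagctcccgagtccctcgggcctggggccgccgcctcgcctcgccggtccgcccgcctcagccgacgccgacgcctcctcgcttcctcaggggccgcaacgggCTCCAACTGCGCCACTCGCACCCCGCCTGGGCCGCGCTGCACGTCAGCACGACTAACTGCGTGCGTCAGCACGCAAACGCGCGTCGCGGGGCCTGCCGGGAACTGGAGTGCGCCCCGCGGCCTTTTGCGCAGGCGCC
TRAM2-AS1: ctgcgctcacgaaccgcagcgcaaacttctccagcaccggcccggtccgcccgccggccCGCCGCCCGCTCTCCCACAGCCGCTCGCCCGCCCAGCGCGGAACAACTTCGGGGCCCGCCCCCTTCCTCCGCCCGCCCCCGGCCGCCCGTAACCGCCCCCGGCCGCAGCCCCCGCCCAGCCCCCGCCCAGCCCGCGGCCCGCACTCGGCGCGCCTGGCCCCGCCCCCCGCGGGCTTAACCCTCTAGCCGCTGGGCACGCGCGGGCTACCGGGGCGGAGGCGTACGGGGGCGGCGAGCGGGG
STARD4-AS1: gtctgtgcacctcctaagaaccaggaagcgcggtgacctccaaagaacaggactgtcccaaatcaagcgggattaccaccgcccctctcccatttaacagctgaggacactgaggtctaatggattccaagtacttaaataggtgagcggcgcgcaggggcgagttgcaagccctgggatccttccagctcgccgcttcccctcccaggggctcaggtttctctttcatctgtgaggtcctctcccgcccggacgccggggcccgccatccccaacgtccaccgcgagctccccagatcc
VLDLR-AS1: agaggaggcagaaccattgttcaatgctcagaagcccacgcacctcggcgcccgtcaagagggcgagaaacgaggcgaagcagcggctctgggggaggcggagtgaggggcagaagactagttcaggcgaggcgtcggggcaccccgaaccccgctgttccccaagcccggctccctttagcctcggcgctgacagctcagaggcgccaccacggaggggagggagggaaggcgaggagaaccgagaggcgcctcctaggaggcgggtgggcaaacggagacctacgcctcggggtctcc
ARHGAP42-AS1: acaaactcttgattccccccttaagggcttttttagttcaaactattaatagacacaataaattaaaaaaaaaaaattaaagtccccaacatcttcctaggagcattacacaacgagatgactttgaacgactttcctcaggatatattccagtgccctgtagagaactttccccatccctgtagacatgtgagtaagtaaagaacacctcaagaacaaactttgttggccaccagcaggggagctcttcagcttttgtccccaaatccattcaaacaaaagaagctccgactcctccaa
The SRRM2-AS1 window (chr16:2752551-2752850, minus strand) shared 137 of its 300 bases with that of SRRM2, whose RefSeq start lay 38 bases away. The TRAM2-AS1 window (chr6:52576952-52577251, plus strand) shared 241 bases with that of TRAM2, with the starts 142 bases apart. The windows of STARD4-AS1 (chr5:111511976-111512275, plus strand), VLDLR-AS1 (chr9:2622324-2622623, minus strand) and ARHGAP42-AS1 (chr11:100687906-100688205, minus strand) shared none, with RefSeq starts 309, 586 and 667 bases from those of their partners. The shared windows were the richest in CG dinucleotides, with 47 for SRRM2-AS1 and 49 for TRAM2-AS1, against 18, 26 and 3 in the other three in the order just given. Over the 423 members with a window counted, the median was 17 CG dinucleotides, against 14 over 27305 genes. Among the motifs searched on both strands, the E-box CACGTG was in 7.33% of the members' windows and 7.43% of all windows. The NRF2-type element TGACNNNGC was in 15.1% and 13.6%, the ATF4 and C/EBP-type element TGATGNAA in 2.13% and 3.67%, and CCACG, a part of the unfolded protein response element, in 41.6% and 37.9%. Of the 5 windows above, that of VLDLR-AS1 held CCACG (2 matches) and none held the other three. CCACG can overlap the E-box where a C precedes it, and a match is a run of letters, not a bound site.

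The libraries held 81616741 to 87748820 counts. Counts of 4 occurred 9555 times in the table, against 4210 for counts of 3 and 2659 for counts of 5, with like excesses at 8 and 12. A fragment may thus have been counted about 4 times, and a printed count may stand for that many times fewer fragments. For this reason a locus with fewer than 12 counts in a library (0.135 to 0.146 CPM, counts scaled to library size) was treated as under the floor. Control 3 stood apart from the other libraries on the second principal component (which held 18% of the variance, after 49.7% on the first, which divided the groups), and the biological coefficient of variation was 41.0% in Control and 27.2% in HG. Among markers of retinal pigment epithelium, RPE65, TYR, DCT and TTR were at or near 0 in all 6 libraries. OTX2 was at 5.20 to 8.76 FPKM in Control and 6.82 to 7.75 in HG, and was not called. MITF (8.76 to 9.45 and 3.18 to 6.98) and TJP1 (8.78 to 13.4 and 9.31 to 10.1) were not called either. RDH5 (in a row with BLOC1S1), SERPINF1, RLBP1, LRAT, PMEL and TYRP1 were also tested and not called. KRT8 and KRT18, keratins of simple epithelia, were called higher in HG. The call of KRT8 was lost without Control 1 or any one HG library (edgeR adjusted p 0.052 to 0.0566). The summed FPKM (fragments scaled to locus length and library size) of that marker list was 118 to 201 in Control and 411 to 436 in HG, with 2 of 13 tested markers called higher and 2 lower and a median log2 change of −0.27. KRT8 and KRT18 made up most of that sum, with 29.7 to 70.7 and 49 to 93.4 FPKM in Control and 145 to 147 and 233 to 254 FPKM in HG. The markers called lower were BEST1, a chloride channel gene (log2 change −2.20, edgeR adjusted p = 0.0113), and MERTK, a receptor kinase gene of outer segment uptake (−1.23, edgeR adjusted p = 0.0191). The call of BEST1 was lost without HG 1 or HG 2 (edgeR adjusted p 0.0523 and 0.0516) and that of MERTK without any one HG library (0.0659 to 0.0789). The fibroblast list summed to 14.9 to 26 in Control and 22.7 to 22.9 in HG (1 of 8 called higher, 1 lower), and the endothelial list to 1.20 to 2.05 and 0.338 to 0.506 (1 of 3 called lower). Among leukocyte markers CD3E was at 0 and PTPRC at or near 0, and among photoreceptor markers CRX was at 0. The part of these marker differences in the results on antisense loci was not tested.

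The antisense loci were mostly of low abundance, and a minority differed between normal and high glucose. Their mean FPKM ran from 0.0137 to 13.8, with a median of 0.313, where the median of loci with a coding transcript was 3.42, and 90 of the 613 were above 1 FPKM. At a Benjamini-Hochberg adjusted p below 0.05 over the 25025 loci tested with edgeR's quasi-likelihood test, which is what called means throughout, 50 antisense loci were higher in HG (8.16%) and 40 were lower (6.53%). Of all loci tested, 9.75% were called higher, 9.86% lower and 19.6% in either direction. The 14.7% of antisense loci called was above the 9.9% of the other annotated loci with lncRNA transcripts alone (5.6% higher and 4.3% lower) and below the 25.5% of loci with a coding transcript (13.1% higher and 12.4% lower); these are counts side by side and were not tested against each other. A 2-fold or larger fitted change was found in 40 of the loci called higher and 31 of those called lower. In RNA from whole cultures, a change in the share of cells that express a locus and a change in RNA per cell cannot be told apart. Without Control 3, 76 antisense loci were called higher and 51 lower. Without Control 1 the counts were 35 and 24, and without Control 2 they were 31 and 21. Without HG 1, HG 2 or HG 3 they fell to 14 and 16, 16 and 12, and 15 and 10.

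The share of antisense loci called rose with their level. It was 4.27% of the 234 loci below 0.5 CPM, 13.8% of the 210 from 0.5 to 2 CPM, 25.8% of the 124 from 2 to 10 CPM and 42.2% of the 45 at 10 CPM or more. Over all loci tested the same levels gave 5.15%, 15.1%, 26.6% and 28.6%. Over the other lncRNA loci they gave 4.13%, 12.4%, 27.5% and 30.4% (35 of 115 loci), and 2153 of those 3768 loci were below 0.5 CPM. The antisense loci thus differed by little from all loci and from the other lncRNA loci in the lower levels. Of the 45 most abundant, 19 were called. The groups did not overlap in CPM in 225 antisense loci (36.7%, against 42.3% of all loci), among them the 90 called. The median log2 change was 0.16 over the antisense loci, against −0.004 over all loci tested, 0.09 over the other lncRNA loci and 0.01 over coding loci. A positive change was fitted for 347 antisense loci and a negative one for 266 (56.6% positive, against 49.8% of all loci).

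**Figure D1:**
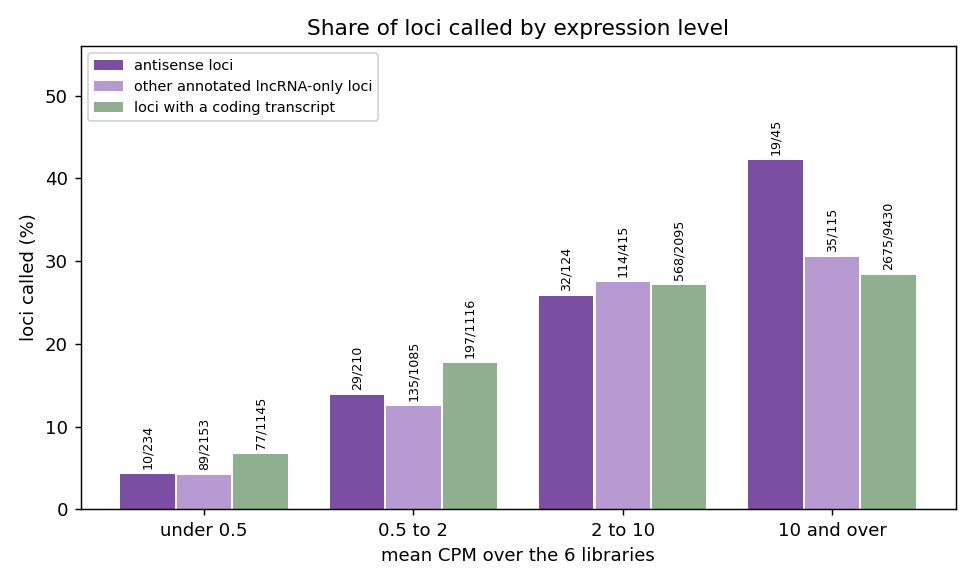
Share of loci called (y axis, %) by mean CPM over the 6 libraries (x axis, 4 levels) for antisense loci, other annotated lncRNA loci and loci with a coding transcript, with called and tested loci above each bar. The shares climb with level in each class at the lower levels, and the antisense bar at 10 CPM and over stands at 42.2%.

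Among the antisense loci that rose most in HG, MYO16-AS1, RDH10-AS1, BNC2-AS1 and INHBA-AS1 had partners that rose with them. MYO16-AS1 (row shared with AL161431, chr13:109163902-109269635, minus strand) runs tail to tail with MYO16, an unconventional myosin. It was at 6.86, 8.08 and 21.9 CPM in Control 1 to 3 and at 135, 138 and 125 CPM in HG 1 to 3. The HG libraries lay close together and above each Control library, of which Control 3 was the highest. Its log2 change was 3.43 ± 0.453 (SE, edgeR adjusted p = 0.00523), or 4.15 without Control 3. RDH10-AS1 (chr8:73297615-73356360, minus strand) is the antisense locus of RDH10, which oxidises retinol to retinal. It stood at 1.94, 1.31 and 1.58 CPM in Control and 9.9, 8.96 and 9.57 CPM in HG, a log2 change of 2.56 ± 0.209 (SE, edgeR adjusted p = 0.00182). TMEM108-AS1 (chr3:133245603-133257207, minus strand), inside TMEM108, was at 0.15, 0.128 and 0.253 CPM in Control, close to the floor, and at 2.49, 2.21 and 3.62 CPM in HG (log2 change 3.96 ± 0.382, SE, edgeR adjusted p = 0.00272). TAPT1-AS1 (chr4:16226685-16320140, plus strand), whose start lies 214 bases from that of TAPT1, rose from 1.16, 1.68 and 0.601 CPM to 5.94, 6.09 and 5.69 CPM (log2 change 2.37 ± 0.367, SE, edgeR adjusted p = 0.00816). RUNDC3A-AS1 was at 0.0809, 0.14 and 0.168 CPM in Control and 0.885, 1.57 and 1.19 CPM in HG. The loci of this set were chosen among those with groups apart in CPM. No single library decided the call of MYO16-AS1, RDH10-AS1, TMEM108-AS1, TAPT1-AS1 or RUNDC3A-AS1.

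Like TMEM108-AS1 and RUNDC3A-AS1, the other 5 loci of this set were near or under the floor in Control. The size of the change is less certain in all of these. ARHGAP42-AS1 (chr11:100684162-100687955, minus strand), head to head with the GTPase-activating protein gene ARHGAP42, had no counts in the 3 Control libraries and 28, 33 and 12 counts in HG, which may be few fragments for the reason given above. With counts divided by 4 its edgeR adjusted p was 0.0264. Set against a floor of 12 counts per library it was at least 1.98-fold higher in HG. Without HG 1 its edgeR adjusted p was 0.0663, and without HG 2 it was 0.0685. BNC2-AS1, inside BNC2, was at 0, 0.035 and 0.108 CPM in Control and 0.516, 0.524 and 0.522 CPM in HG, at least 3.69-fold higher. Its log2 change of 3.42 became 4.79 without Control 3, and its call was lost without Control 2 or any one HG library (edgeR adjusted p 0.119 to 0.124). INHBA-AS1, head to head with INHBA, which encodes the subunit of activin A, was at 0.127, 0.035 and 0.0962 CPM in Control and 0.583, 0.547 and 0.753 CPM in HG, at least 4.45-fold higher. PKN2-AS1, head to head with the kinase gene PKN2, was at 0.116, 0.0932 and 0.108 CPM and 0.897, 0.707 and 0.413 CPM, at least 4.77-fold higher. LHFPL3-AS2 was at 0.139, 0.0932 and 0.192 CPM and 0.852, 0.638 and 0.753 CPM. The call of INHBA-AS1 was lost without any one HG library (edgeR adjusted p 0.0565 to 0.0679), that of PKN2-AS1 without HG 1 or HG 2 (0.0591 and 0.0547), and that of LHFPL3-AS2 without HG 1 or HG 3 (0.0561 and 0.0524).

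The antisense loci that fell most were, with 1 exception, well above the floor in Control. KLHL30-AS1 (chr2:238152889-238162733, minus strand) fell furthest, from 26.1, 25.7 and 4.68 CPM to 0.224, 0.103 and 0.231 CPM, a log2 change of −6.65 ± 0.789 (SE, edgeR adjusted p = 0.00391). Its row also carries the name of ERFE, the gene of the hormone erythroferrone, so the counts cannot be assigned to the antisense transcript alone. PLCE1-AS1 (chr10:94278681-94287478, minus strand), inside the phospholipase C epsilon gene PLCE1, was at 7.48, 11.4 and 8.55 CPM in Control and 1.35, 0.98 and 0.304 CPM in HG (log2 change −3.38 ± 0.515, SE, edgeR adjusted p = 0.00766). CKMT2-AS1 (chr5:81201341-81301560, minus strand) was at 31.4, 43 and 35.5 CPM and at 7.25, 8.43 and 8.39 CPM (log2 change −2.19 ± 0.163, SE, edgeR adjusted p = 0.00148). These 3 calls held without any single library. IGFL2-AS1 was at 38.1, 49.7 and 72.8 CPM in Control and 19.7, 16.5 and 8.18 CPM in HG (log2 change −1.85 ± 0.368, SE, edgeR adjusted p = 0.0165), and its edgeR adjusted p was 0.0597 without HG 2. VLDLR-AS1, whose start region is printed above, was at 7.91, 8.16 and 2.36 CPM and at 1.3, 0.604 and 1.04 CPM (log2 change −2.64 ± 0.53, SE, edgeR adjusted p = 0.017). Its call was lost without Control 1 or any one HG library (edgeR adjusted p 0.0511 to 0.0665). SPART-AS1 was at 2.9, 2.73 and 2.28 CPM in Control and 1.05, 0.467 and 0.413 CPM in HG, and its edgeR adjusted p was 0.0666 without HG 2 and 0.0592 without HG 3. ATP2B1-AS1, in a row shared with AC009522, was at 2.98, 2.99 and 0.926 CPM and at 0.684, 0.308 and 0.607 CPM, with Control 3 nearest to the HG libraries; its call was lost without Control 1, Control 2 or any one HG library (edgeR adjusted p 0.0811 to 0.109). SPON1-AS1 was at 0.439, 0.513 and 0.18 CPM in Control and under the floor in HG, at least 2.72-fold lower, and its call was lost without any library other than Control 3 (edgeR adjusted p 0.0789 to 0.108). ATP13A4-AS1 and RGMB-AS1, the other two of this set, are given with their partners below.

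**Figure D2:**
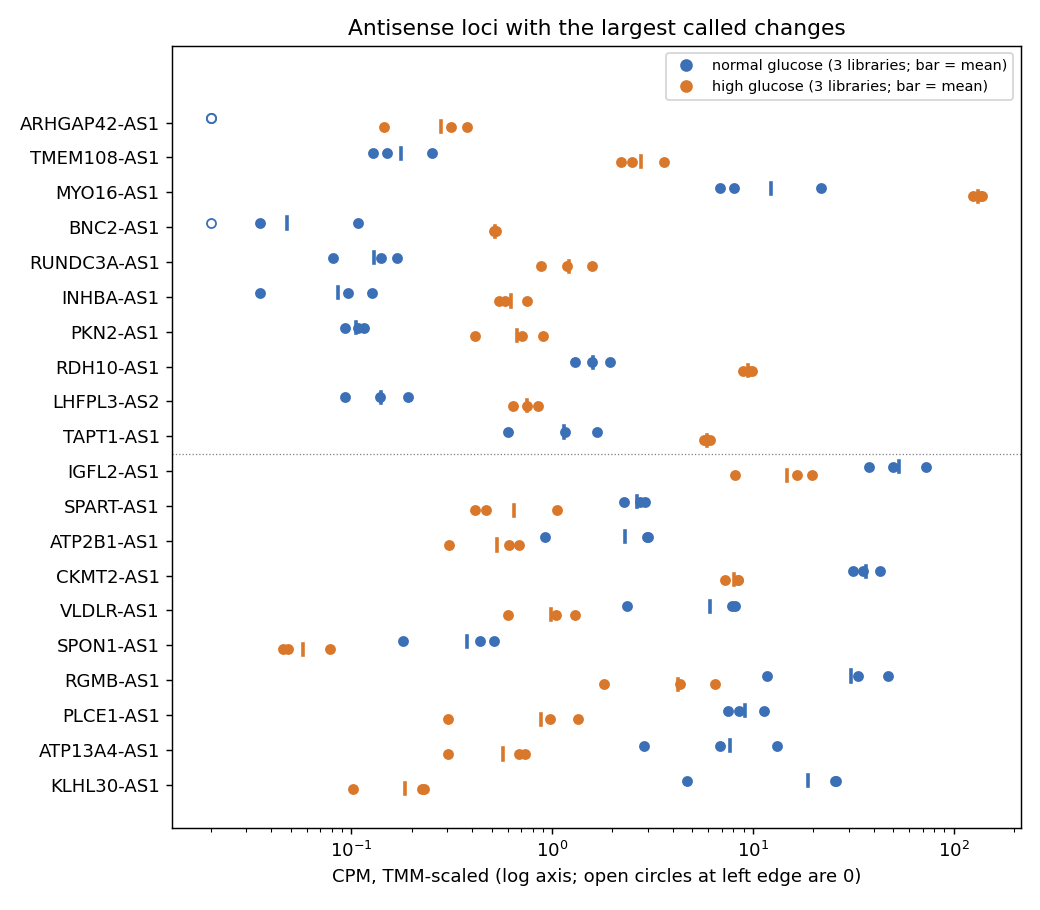
CPM (x axis, log scale) in each library for the 10 antisense loci with the largest called rise (above the dotted line) and the 10 with the largest called fall (below it); points are libraries, vertical bars are group means, and open circles at the left edge are counts of 0. The 20 loci were chosen among called loci whose 2 groups do not overlap. Control 3 is the Control library nearest to HG in MYO16-AS1, TMEM108-AS1, RUNDC3A-AS1, BNC2-AS1, LHFPL3-AS2, KLHL30-AS1, VLDLR-AS1, SPART-AS1, ATP2B1-AS1, SPON1-AS1, ATP13A4-AS1 and RGMB-AS1.

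Of the 5 antisense loci with the highest FPKM, IGFL2-AS1 (above) and NOP14-AS1 were called and the other three were not. The antisense locus with the highest FPKM, FGD5-AS1, was at 82.9, 94.3 and 100 CPM in Control and 83, 83.8 and 82.9 CPM in HG, a log2 change of −0.15 ± 0.107 (SE, edgeR adjusted p = 0.365). Its groups met at 82.9 CPM. AGAP2-AS1 was at 14.1, 15.8 and 20.5 CPM in Control and 14.6, 13.5 and 12.2 CPM in HG (log2 change −0.33 ± 0.179, SE, edgeR adjusted p = 0.244). TPM1-AS, inside the tropomyosin gene TPM1, was at 19.1, 10.9 and 30.1 CPM in Control and 28.4, 19.5 and 29.3 CPM in HG (log2 change 0.36 ± 0.356, SE, edgeR adjusted p = 0.521), while TPM1 rose with a log2 change of 1.12 ± 0.19 (SE, edgeR adjusted p = 0.0104). NOP14-AS1 (chr4:2934882-2961738, plus strand) was at 41.2, 39.8 and 39.3 CPM in Control and 81.6, 81.4 and 81.7 CPM in HG. It had the narrowest spread among the loci named for their level, and its log2 change was 1.02 ± 0.0927 (SE, edgeR adjusted p = 0.00234). NOP14 itself, which acts in small ribosomal subunit assembly and overlaps the antisense locus tail to tail, went from 53.9, 59.5 and 65.3 CPM to 83.1, 86.9 and 73.5 CPM (log2 change 0.45 ± 0.12, SE, edgeR adjusted p = 0.0419), a call lost without any library other than Control 3 (edgeR adjusted p 0.0766 to 0.149).

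Partner genes were found in the table for 607 of the 615 antisense symbols, all on the opposite strand, and 587 pairs of rows with 564 partner loci could be tested. Of the partners, 85 were called higher and 84 lower in HG (30.0% together, against 25.5% of loci with a coding transcript), with a median log2 change of 0.02. In 32 pairs both loci were called in the same direction (5.45%), 16 higher and 16 lower. In 11 pairs they were called in opposite directions (1.87%), with the antisense locus higher in 6 and lower in 5. Neighbouring tested loci along the chromosomes gave 3.56% called in the same direction and 1.3% in opposite directions. Neighbouring loci that overlap on opposite strands gave 4.16% and 1.05%. Antisense loci were not left out of these 2 sets of neighbours. Coding loci with an overlapping lncRNA neighbour of another kind on the opposite strand gave 2.77% and 0.51%. Both shares were higher in the antisense pairs, but the partners were also called more often than loci in general, and these shares were not tested against each other. In 41 pairs the antisense locus alone was called, in 136 the partner alone, and in 367 neither. Without Control 3 the counts were 50 pairs in the same direction and 18 in opposite directions. Without any other single library they were 7 to 18 and 1 to 5 (16 and 5 without Control 1, 18 and 4 without Control 2, 10 and 2 without HG 1, 7 and 1 without HG 2 or HG 3). Per length, the antisense locus was below its partner in FPKM in all 6 libraries in 494 pairs and above it in 34, and its median FPKM was 5.88% of the partner's in Control and 6.52% in HG.

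The log2 changes of antisense locus and partner were weakly related across the 587 pairs (Pearson r = 0.33, Spearman correlation 0.31, a description over pairs that share their 6 libraries). Neighbouring loci in general gave 0.26 and 0.24 over 25001 pairs. The closer comparison, neighbouring loci that overlap on opposite strands, gave 0.36 and 0.32 over 4850 pairs. The 515 antisense pairs that overlap gave 0.34 and 0.34. Antisense loci were not left out of either set of neighbours. By layout, the Pearson and Spearman values were 0.53 and 0.41 in the 91 tail-to-tail pairs, 0.46 and 0.44 in the 25 where the partner lies inside the antisense locus, and 0.42 and 0.43 in the 214 where the antisense locus lies inside the partner. They were lower in the 185 head-to-head pairs, at 0.17 and 0.19, and in the 72 pairs that do not overlap, at 0.29 and 0.09. In the 155 pairs whose starts lie within 1000 bases of each other they were 0.15 and 0.14. Of these 155 pairs, 5 were called in the same direction and 1 in opposite directions, where neighbouring tested loci gave 3.56% and 1.3%. In the 4 layouts other than apart, the head-to-head one included, the loci of a pair overlap, and the part of reads shared by unstranded counting in these values was not tested.

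**Figure D3:**
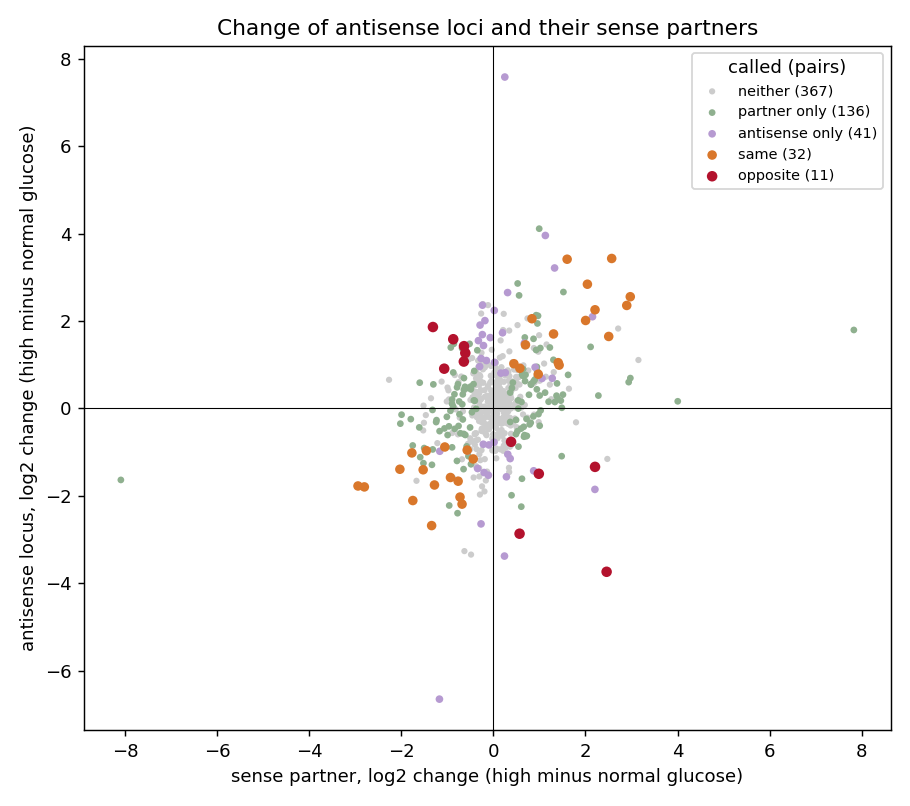
Log2 change of each antisense locus (y axis) against that of its sense partner (x axis), HG minus Control, for 587 pairs coloured by which locus of the pair was called. Most points lie near the origin, 32 pairs are called in the lower left or upper right and 11 in the upper left or lower right; the topmost point, ARHGAP42-AS1, has no Control counts and its height depends on the fit's prior count.

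The pairs that rose together included RDH10, TRAM2, PDE6B and MYO16 with their antisense loci. RDH10 was at 40.9, 38 and 60.9 CPM in Control and 360, 362 and 377 CPM in HG, a log2 change of 2.97 ± 0.197 (SE, edgeR adjusted p = 0.00125), beside the 2.56 of RDH10-AS1. RDH10-AS1 counts were 4.75%, 3.44% and 2.59% of those of RDH10 in Control and 2.75%, 2.48% and 2.54% in HG, and these groups overlapped. TRAM2, which acts at the endoplasmic reticulum translocon in collagen synthesis, went from 252, 211 and 314 CPM to 687, 692 and 683 CPM (log2 change 1.41 ± 0.154, SE, edgeR adjusted p = 0.00316). TRAM2-AS1, whose start window shares most of its bases with that of TRAM2, went from 10.3, 8.4 and 9 CPM to 17.5, 18.6 and 21.1 CPM (log2 change 1.05 ± 0.149, SE, edgeR adjusted p = 0.00643). PDE6B-AS1, inside the rod phosphodiesterase gene PDE6B, was at 0.797, 0.769 and 0.589 CPM and 2.94, 2.2 and 1.91 CPM, and PDE6B at 5.72, 6.3 and 6.55 CPM and 12.4, 20.4 and 13.1 CPM. The log2 changes were 1.71 for the antisense locus and 1.31 for PDE6B. MYO16 was at 0.485, 0.21 and 0.469 CPM in Control and 2.54, 2.37 and 2.02 CPM in HG, with a log2 change of 2.57 ± 0.37 (SE, edgeR adjusted p = 0.00668). ELFN1-AS1 and ELFN1, a synaptic adhesion gene, had log2 changes of 1.65 and 2.51, and the call of the antisense locus was lost without HG 2 or HG 3 (edgeR adjusted p 0.0533 and 0.0504). INHBA rose from 4.18, 2.67 and 3.26 CPM to 16, 12.7 and 12.9 CPM and BNC2, in a row shared with C9orf92, from 26.3, 22.4 and 29.8 CPM to 66.8, 82.4 and 89.2 CPM, with log2 changes of 2.04 and 1.60.

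Among the pairs that fell together, CKMT2, the mitochondrial creatine kinase gene, shares its row with RASGRF2. That row went from 122, 125 and 110 CPM to 75.5, 72.8 and 74.8 CPM (log2 change −0.68 ± 0.0988, SE, edgeR adjusted p = 0.00677), less than the −2.19 of CKMT2-AS1. The antisense counts were 25.6%, 34.3% and 32.2% of the partner's in Control and 9.6%, 11.6% and 11.2% in HG, and these groups did not overlap. VAC14-AS1, inside the gene of the PIKfyve scaffold VAC14, was at 16.1, 16.2 and 13.8 CPM and 8.38, 8.56 and 8.1 CPM, a log2 change of −0.88 beside −1.06 for VAC14. MAMDC2-AS1 was at 3.87, 3.5 and 3.33 CPM and 1.01, 1.52 and 1.52 CPM, a log2 change of −1.40 beside −1.53 for MAMDC2. ATP2B1, the gene of a plasma membrane calcium pump, fell from 369, 405 and 212 CPM to 94.1, 91.3 and 108 CPM (log2 change −1.75 ± 0.24, SE, edgeR adjusted p = 0.00582). SPON1, which encodes a secreted matrix protein, had a log2 change of −1.34, and SPART, the gene of spartin, one of −0.73; the call of SPART was lost without any one HG library (edgeR adjusted p 0.0548 to 0.0654).

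In the 11 pairs called in opposite directions, the antisense share of the partner's counts differed between the groups without overlap, which the choice of these pairs largely fixes. STARD4-AS1 (chr5:111510396-111739726, plus strand) lies head to head with STARD4, which encodes a sterol carrier. It was at 10.4, 3.86 and 3.79 CPM in Control and 17.7, 26.4 and 21.7 CPM in HG, while STARD4 was at 122, 109 and 76.6 CPM in Control and 40.3, 39.7 and 43.8 CPM in HG. The log2 changes were 1.86 ± 0.423 (SE, edgeR adjusted p = 0.0246) for the antisense locus and −1.31 ± 0.179 (SE, edgeR adjusted p = 0.00571) for STARD4. Its counts thus went from 8.53%, 3.53% and 4.94% to 43.8%, 66.6% and 49.5% of those of STARD4. The antisense change was 2.52 without Control 1, and its call was lost without Control 2 or any one HG library (edgeR adjusted p 0.0585 to 0.0844). SRRM2-AS1 (chr16:2737076-2752593, minus strand) is the 1 pair of these whose loci do not overlap, with starts 33 bases apart in the table. It was at 1.8, 2.02 and 2.56 CPM in Control and 4.15, 3.98 and 3.87 CPM in HG (log2 change 0.91 ± 0.212, SE, edgeR adjusted p = 0.0268). SRRM2, a scaffold of nuclear speckles, was at 525, 363 and 386 CPM and 217, 250 and 140 CPM (log2 change −1.07 ± 0.24, SE, edgeR adjusted p = 0.0238). Without any library other than Control 3 the call of SRRM2-AS1 was lost (edgeR adjusted p 0.0698 to 0.0937), and that of SRRM2 was lost without Control 1, HG 1 or HG 3 (0.0683, 0.0734 and 0.0575).

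ATP13A4-AS1 (chr3:193506796-193555549, plus strand) and ATP13A4, a P5-type ATPase gene that shares its row with AC048351, differed most in log2 change of the 11 pairs. The antisense locus was at 6.87, 13.3 and 2.89 CPM in Control and 0.684, 0.729 and 0.304 CPM in HG, and ATP13A4 at 0.45, 0.233 and 0.253 CPM and 1.45, 1.87 and 1.86 CPM. The log2 changes were −3.74 ± 0.626 (SE, edgeR adjusted p = 0.01), or −3.08 without Control 2, and 2.46 ± 0.355 (SE, edgeR adjusted p = 0.00671). RGMB-AS1 was at 47.1, 33.5 and 11.7 CPM in Control and 1.82, 6.48 and 4.36 CPM in HG (log2 change −2.87 ± 0.619, SE, edgeR adjusted p = 0.0211). RGMB, a co-receptor for bone morphogenetic proteins within whose locus it lies, was at 197, 158 and 169 CPM and 270, 256 and 251 CPM (log2 change 0.57 ± 0.114, SE, edgeR adjusted p = 0.017). The call of RGMB-AS1 was lost without any library other than Control 3 (edgeR adjusted p 0.0505 to 0.0786), and that of RGMB without any one HG library (0.0606 to 0.0725). ASMTL-AS1 fell (log2 change −1.50 ± 0.288, SE) from 3.81, 2.41 and 3.2 CPM to 1.43, 0.957 and 0.947 CPM, while ASMTL rose (0.99 ± 0.107, SE) from 22.6, 20.8 and 20.6 CPM to 43.5, 42 and 41.4 CPM. Without HG 2 or HG 3 the edgeR adjusted p of ASMTL-AS1 was 0.067 and 0.0658.

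In a further 3 pairs the antisense locus was higher and TFAP2A, SP2 or PAXIP1 was lower. TFAP2A-AS1, which overlaps the gene of the transcription factor AP-2 alpha, went from 1.04, 0.594 and 1.33 CPM to 2.37, 3.22 and 3.33 CPM, and TFAP2A from 9.99, 12.8 and 12.4 CPM to 6.36, 6.14 and 6.75 CPM (log2 changes 1.59 and −0.87). SP2-AS1, tail to tail with the zinc finger factor gene SP2, went from 3.7, 2.39 and 2.8 CPM to 8.99, 6.12 and 8.79 CPM, and SP2 from 27.4, 30.8 and 28.5 CPM to 20, 15.5 and 20.2 CPM (log2 changes 1.43 and −0.64). PAXIP1-AS2, tail to tail with PAXIP1, a gene of histone methylation and DNA repair, went from 4.64, 3.73 and 3.26 CPM to 7.79, 8.52 and 8.17 CPM, and PAXIP1 from 28.5, 35.2 and 36.6 CPM to 22.5, 19.8 and 22 CPM (log2 changes 1.07 and −0.64). Each of these 6 calls was lost without at least 1 library. The edgeR adjusted p then was 0.0509 to 0.0773 for TFAP2A-AS1 (without Control 1 or any one HG library) and 0.0547 to 0.0652 for TFAP2A (without any one HG library). It was 0.0503 and 0.0517 for SP2-AS1 (without HG 1 or HG 3) and 0.0531 to 0.0863 for SP2 (without any library other than Control 3). It was 0.0569 and 0.0527 for PAXIP1-AS2 (without HG 2 or HG 3) and 0.061 to 0.0911 for PAXIP1 (without Control 2 or any one HG library). The 3 remaining opposite pairs, named because their number is small and after their values were seen, were ADAMTS9-AS2, PSMD6-AS2 and ZSCAN16-AS1. PSMD6-AS2, in 1 row with PSMD6-AS1, had a log2 change of −0.76 beside 0.38 for the proteasome subunit gene PSMD6, and ZSCAN16-AS1 one of 1.27 beside −0.61 for ZSCAN16. The calls of PSMD6-AS2 and PSMD6 were lost without any library other than Control 3 (edgeR adjusted p 0.103 to 0.148 and 0.0956 to 0.153), as were those of ZSCAN16 (0.0661 to 0.116); that of ZSCAN16-AS1 was lost without Control 2 or any one HG library (0.0533 to 0.0875).

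**Figure D4:**
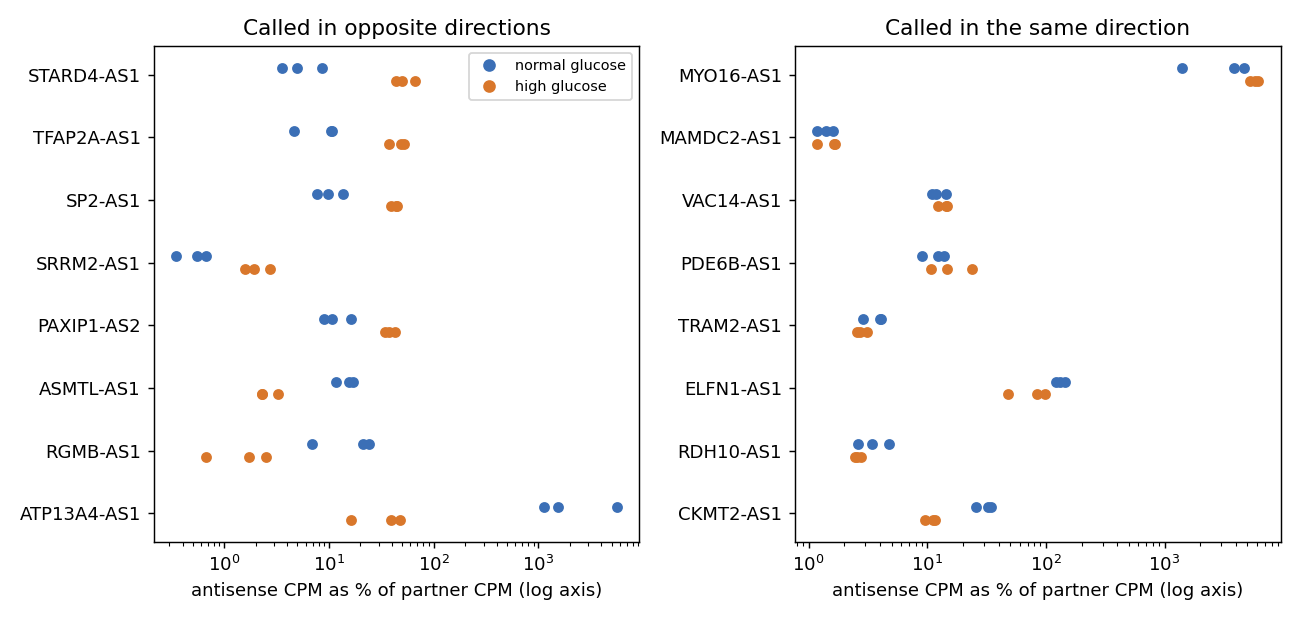
CPM of the antisense locus as a percentage of its partner's CPM (x axis, log scale, not per length) in each library, for 8 pairs called in opposite directions (left) and 8 in the same direction (right). The groups are apart in each pair on the left, while on the right they overlap in RDH10-AS1, TRAM2-AS1, VAC14-AS1, PDE6B-AS1 and MAMDC2-AS1.

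ADAMTS9, the gene of a metalloprotease that cleaves matrix proteoglycans, carried 2 antisense loci that moved in different directions; this locus was singled out after its values were seen. ADAMTS9 went from 16.9, 13.4 and 49.1 CPM to 115, 117 and 134 CPM (log2 change 2.21 ± 0.475, SE, edgeR adjusted p = 0.021). ADAMTS9-AS1, inside ADAMTS9, went from 0.393, 0.128 and 0.782 CPM to 1.73, 2.37 and 2.15 CPM (log2 change 2.26 ± 0.58, SE, edgeR adjusted p = 0.0361). ADAMTS9-AS2, head to head with ADAMTS9 over 3092 shared bases, went from 4.18, 5.75 and 2.01 CPM to 1.64, 1.44 and 1.65 CPM (log2 change −1.34 ± 0.379, SE, edgeR adjusted p = 0.0484). Without Control 3 the changes of ADAMTS9 and ADAMTS9-AS1 were 3.01 and 2.99. The calls of ADAMTS9 and ADAMTS9-AS1 were lost without Control 1 or any one HG library (edgeR adjusted p 0.0604 to 0.0692 and 0.0822 to 0.108), and that of ADAMTS9-AS2 without any library other than Control 3 (0.115 to 0.148).

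A change of the antisense locus with no call for its partner was found in 41 pairs. PLCE1 was at 70.8, 74 and 67.9 CPM in Control and 80.8, 81.8 and 88.7 CPM in HG (log2 change 0.24 ± 0.098, SE, edgeR adjusted p = 0.131) where PLCE1-AS1 fell, and the antisense counts went from 10.6%, 15.4% and 12.6% to 1.66%, 1.2% and 0.342% of those of PLCE1. TAPT1 was at 32.4, 43.7 and 31.4 CPM in Control and 35.2, 29.4 and 26.6 CPM in HG (log2 change −0.24 ± 0.176, SE, edgeR adjusted p = 0.392) where TAPT1-AS1 rose, from 3.56%, 3.84% and 1.92% to 16.9%, 20.7% and 21.4% of it. Neither partner passed the test, which does not show that it was level. VLDLR, the very low density lipoprotein receptor gene, had a log2 change of −0.27 ± 0.151 (SE, edgeR adjusted p = 0.26), or an edgeR adjusted p of 0.0193 without Control 3. ARHGAP42 and PKN2 changed by 0.25 and 0.31 on the log2 scale, short of the threshold (edgeR adjusted p = 0.238 and 0.241). TMEM108 and RUNDC3A had larger changes of 1.13 and 1.33 that missed the threshold (edgeR adjusted p = 0.064 and 0.0533), and that of TMEM108 passed without Control 2 (0.0242). The antisense to partner ratio of CPM + 0.5 was apart between the groups in 32 of these 41 pairs. Their choice by a called antisense locus largely fixes this. Over all 587 pairs the ratio was apart in 223 (38.0%, against 37.3% of neighbouring loci). With 3 libraries a group the exact 2-sided permutation test of 1 ratio cannot go below p = 0.1.

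The reverse, a partner called with no call for the antisense locus, was found in 136 pairs. ARRDC3, an arrestin-domain gene named here after its values were seen, went from 1.58, 3.1 and 4.25 CPM to 46.1, 46.9 and 50.3 CPM, a log2 change of 4 ± 0.353 (SE, edgeR adjusted p = 0.00228). ARRDC3-AS1, which overlaps it head to head over 2969 bases, was at 0.901, 1.1 and 1.94 CPM in Control and 1.54, 1.61 and 1.26 CPM in HG (log2 change 0.16 ± 0.34, SE, edgeR adjusted p = 0.774). The antisense counts thus went from 56.9%, 35.3% and 45.6% to 3.33%, 3.43% and 2.51% of those of ARRDC3.

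Some pairs share no sequence in the table's coordinates. Of 72 such pairs, 16 had the antisense locus called and 18 the partner, with 4 called in the same direction and 1, SRRM2, in opposite directions. The 4 were ATP2B1-AS1, with a start 52848 bases from that of ATP2B1, and 3 pairs named after their values were seen, whose starts lie 15 to 129 bases apart. TM4SF1-AS1 (starts 129 bases apart) was at 0.277, 0.0816 and 0.18 CPM in Control and 0.863, 0.866 and 1.06 CPM in HG (log2 change 2.36 ± 0.487, SE), and TM4SF1, a tetraspanin-like surface protein gene, at 21.5, 16.1 and 54.5 CPM and 266, 215 and 205 CPM (2.90 ± 0.456, SE, or 3.61 without Control 3). RTCA-AS1 (37 bases) rose from 1.65, 1.47 and 2.79 CPM to 7.47, 4.08 and 4.69 CPM and RTCA, an RNA terminal phosphate cyclase gene, from 27.8, 22.4 and 21 CPM to 39.6, 41.7 and 34.2 CPM, with log2 changes of 1.46 and 0.70. EXOC3-AS1 (15 bases) rose from 1.81, 1.58 and 2.19 CPM to 4.05, 3.16 and 3.38 CPM and the exocyst subunit gene EXOC3 from 35.1, 35.3 and 36.1 CPM to 60.6, 44.9 and 53.1 CPM, with log2 changes of 0.92 and 0.57. The call of TM4SF1-AS1 was lost without any one HG library (edgeR adjusted p 0.0592 to 0.0706), and those of RTCA-AS1 and EXOC3-AS1 without any library other than Control 3 (0.0581 to 0.0942 and 0.0795 to 0.114). That of RTCA was lost without Control 2 or any one HG library (0.0524 to 0.0881), and that of EXOC3 without Control 1, Control 2, HG 1 or HG 3 (0.0695 to 0.0963). Among overlapping pairs, KRT7-AS, also named after its values were seen, tracked the keratin gene KRT7 closely. It was at 6.01, 2.9 and 10.2 CPM and 24.8, 26.5 and 25.8 CPM beside 207, 137 and 320 CPM and 883, 941 and 835 CPM for KRT7, so its counts were 2.12% to 3.17% of the partner's over the 6 libraries. The log2 changes were 2.01 and 2, and the call of KRT7-AS was lost without Control 1 or any one HG library (edgeR adjusted p 0.0559 to 0.0617).

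Of 31 antisense RNAs listed because they are often studied, 12 were among the members, and 1 was called. Over all 613 antisense loci 14.7% were called, and over all loci tested 19.6%. FOXD2-AS1 was at 2.15, 2.82 and 2.33 CPM in Control and 1.03, 1.04 and 0.643 CPM in HG, a log2 change of −1.43 ± 0.28 (SE, edgeR adjusted p = 0.0159), and its call was lost without any one HG library (0.0526 to 0.0568). LOXL1-AS1, beside the lysyl oxidase-like gene LOXL1 of elastic fibre cross-linking, was at 96.3, 66.3 and 132 CPM and 180, 157 and 154 CPM (log2 change 0.74 ± 0.237, SE). The groups were apart, but its edgeR adjusted p was 0.0698, or 0.0085 without Control 3. For LOXL1 the log2 change was 0.94 (edgeR adjusted p = 0.0548, or 0.0475 without Control 2 and 0.00905 without Control 3). HIF1A-AS1 was at 0.3, 0.198 and 0.698 CPM in Control and 0.549, 0.809 and 1.07 CPM in HG (log2 change 1.02 ± 0.539, SE, edgeR adjusted p = 0.23, or 0.0395 without Control 3). NNT-AS1 had a log2 change of −0.33 ± 0.147 (SE, edgeR adjusted p = 0.165, or 0.0178 without Control 3). ZEB1-AS1, TMPO-AS1, MCM3AP-AS1, GATA6-AS1, AFAP1-AS1, HIF1A-AS3 and TTN-AS1 had log2 changes of 0.27, −0.71, 0.18, 0.31, −0.57, 0.04 and 0.29, with adjusted p from edgeR between 0.398 and 0.917. For TTN-AS1 the partner row of the giant sarcomere gene TTN rose (log2 change 1.37 ± 0.169, SE, edgeR adjusted p = 0.00447).

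Genes that act on antisense RNA were measured in the same fit. Of all loci tested in it 19.6% were called, and of loci with a coding transcript 25.5%. The lists below were not tested against these shares. Of 24 genes of the RNA exosome and its adaptors, which degrade many such transcripts, 1 was called higher and 2 lower, with a median log2 change of −0.04. EXOSC8 had a log2 change of −0.79 ± 0.123 (SE, edgeR adjusted p = 0.00805), and a row that joins EXOSC6 with SMG1P7 one of −2.80 ± 0.487 (SE, edgeR adjusted p = 0.0112). Of 22 genes of Integrator, cleavage and termination, 1 was called higher and 3 lower (median 0.04), among them the Integrator subunit genes INTS7 (−0.74 ± 0.135, SE, edgeR adjusted p = 0.0128) and INTS8 (−0.59 ± 0.137, SE, edgeR adjusted p = 0.0264). The call of INTS7 was lost without HG 1 or HG 2 (edgeR adjusted p 0.0505 and 0.0587), and that of INTS8 without any library other than Control 3 (0.0561 to 0.103). Of 15 genes that bind, edit or sense double-stranded RNA, 2 were called higher and 2 lower (median 0.14). TLR3, an endosomal sensor, had a log2 change of 1.15 ± 0.171 (SE, edgeR adjusted p = 0.00734), and ADARB1, an adenosine deaminase that edits RNA duplexes, one of −0.96 ± 0.152 (SE, edgeR adjusted p = 0.00845).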

How the data were processed

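RNA from 6 ARPE-19 libraries (3 Control, 3 HG) was analysed from 1 table of 60835 loci. The deposited counts are whole numbers per locus, unscaled, as the file headers and the values show; the authors' FPKM, as the file headers name them, hold 0.0001 at each count of 0. Per the labels' protocols RNA was poly(A)-selected, but the same text also mentions poly(A)-minus fractions and adipose tissue, so RNA selection is uncertain. Bowtie 0.12.2 and a mouse build, mm8, appear in the submitters' processing notes, yet 1140 of 1142 symbols compared overlap their human GRCh38.p14 positions; coordinates are those of the table. The counter, its strand setting and its treatment of multiple hits are not given in the sources used here.

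Counts were fitted with edgeR 4.0.16 in R 4.3.3 (TMM, filterByExpr, quasi-likelihood test of HG against Control on 3 and 3 libraries, no covariate), with Benjamini-Hochberg adjustment over 25025 loci; SE is the absolute log2 change over the square root of F. CPM are TMM-scaled. Partners are the rows of the symbol before -AS. Ratios used CPM + 0.5. Alternatives were other scalings and filters, counts divided by 4, DESeq2 1.42.0, limma 3.58.1 on log2(FPKM + 0.1) or log2(FPKM + 1), a replicate block and each library left out. The edgeR fit was also run on counts simulated with the same spread in both groups. Those counts had neither the unequal spread of the groups nor the excess of some counts seen here, so that run does not cover these features. Loci named are the 10 largest called changes in each direction without group overlap, their partners, the 5 of highest FPKM, up to 8 pairs called in each pattern, a list of studied antisense RNAs, and up to 2 genes of each machinery list; others are marked as named after their values were seen. No values are given for the partners of KLHL30-AS1, IGFL2-AS1 and LHFPL3-AS2. The members and lists were chosen with earlier results of these data known. Start windows are from RefSeq (GRCh38.p14), which held 425 of the members, 423 of them counted once per symbol for the motifs. The SE covers counting error and the spread among the 6 libraries, and floors cover counting error only.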

Additional observations from a re-analysis of the deposited data

How the results depend on the processing

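With DESeq2 in place of edgeR, 85 antisense loci were called higher (57 lower), 59 pairs in the same direction and 17 in opposite directions. On log2(FPKM + 0.1) and log2(FPKM + 1) with limma, the median change was 0.13 and 0.032 for antisense loci and 0.067 and 0.036 for partners, and 55 and 59 antisense loci were called higher against 31 lower in each. Among the 72 pairs that do not overlap, 4 were called in the same direction and 1 in opposite directions. Replicate numbers did not deviate together between the groups (correlations −0.017, −0.00076 and −0.0094 for numbers 1 to 3). With the replicate number as a block, 28 antisense loci were called higher and 20 lower, 43 partners lower, 14 pairs in the same and 4 in opposite directions, and 2545 of all loci, and 26 of 86 called named loci were no longer called. Leaving out each library in turn gave 14 to 76 antisense loci called higher and 10 to 51 lower, 43 to 132 partners higher and 22 to 135 lower, 7 to 50 pairs in the same and 1 to 18 in opposite directions, and 1563 to 7594 of all loci, each highest without Control 3; the fits without a library have fewer samples. The median change then ran from 0.13 to 0.19 for antisense loci and from −0.00015 to 0.024 for partners. Changes of loci not called in the full fit turned sign in it: HIF1A-AS3 (−0.13 to 0.13, also −0.084 without HG 1), MCM3AP-AS1 (−0.016 to 0.47), GATA6-AS1 (−0.064 to 0.64), AFAP1-AS1 (−1.16 to 0.061), ARRDC3-AS1 (−0.045 to 0.56), ID2 (−0.37 to 0.27) and SLC16A1 (−0.089 to 0.14). Other scalings, filters and counts divided by 4 left the counts within 1.5 times.

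Of the loci named by rule, PKN2-AS1 lost its call on both FPKM scales (limma adjusted p = 0.104 and 0.262), as did ATP2B1-AS1 (0.0679 and 0.0799). VLDLR-AS1 and PAXIP1 lost it on log2(FPKM + 1) (limma adjusted p = 0.0552 and 0.0542), and SRRM2-AS1 and VAC14-AS1 on log2(FPKM + 0.1) (0.0578 and 0.06). BNC2-AS1 lost it with no filter on low counts (edgeR adjusted p = 0.0501). LOXL1-AS1, TMEM108 and RUNDC3A were called with DESeq2 (adjusted p = 0.0278, 0.0154 and 0.0185). Of the loci named after their values were seen, ADAMTS9-AS2 and PSMD6-AS2 lost their calls under upper-quartile scaling (edgeR adjusted p = 0.0525 and 0.0552), and PSMD6-AS2, PSMD6, MEIS1-AS2 and LBX2-AS1 with no filter (0.0966, 0.0778, 0.059 and 0.0708). On log2(FPKM + 0.1) and log2(FPKM + 1), limma adjusted p was 0.12 and 0.121 for ADAMTS9-AS2, 0.0992 and 0.0719 for PSMD6-AS2, 0.097 and 0.061 for NR2F1-AS1, 0.071 and 0.0639 for LBX2-AS1, 0.0641 and 0.0737 for MSC-AS1, 0.0622 and 0.0755 for MSC and 0.122 and 0.101 for SLC16A1-AS1, and NR2F2-AS1 missed the threshold on the first (0.05004). LBX2, not called in the full fit, was called under 5 of the alternatives (adjusted p 0.0122 to 0.0497). Low counts limit the antisense loci: 234 of 613 were below 0.5 CPM. The cause of these shifts was not tested.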

Other observations

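The antisense loci in this paragraph and the next were picked out after their values were seen; no list of their kind was fixed or counted, and other members named for transcription factor genes, such as GATA6-AS1 and ZEB1-AS1, were not called. NR2F1-AS1 and NR2F2-AS1 lie head to head with the genes of the nuclear receptors COUP-TFI and COUP-TFII. NR2F1-AS1 was at 13.7, 12.5 and 10.3 CPM in Control and 20.3, 17.7 and 20.7 CPM in HG (log2 change 0.69 ± 0.158, SE, edgeR adjusted p = 0.0255), and NR2F2-AS1 at 14.4, 11.3 and 12.3 CPM and 24.4, 20.7 and 20.2 CPM (0.78 ± 0.154, SE, edgeR adjusted p = 0.0159). NR2F2 was called higher too (0.97 ± 0.19, SE, edgeR adjusted p = 0.0157). NR2F1 was at 30.5 and 23 CPM in Control 1 and 2, 90.2 CPM in Control 3 and 95.6 to 106 CPM in HG (edgeR adjusted p = 0.166, or 0.000694 without Control 3). MEIS1-AS2 and MEIS1, a homeobox gene, rose by 2.05 and 0.84 on the log2 scale (edgeR adjusted p = 0.0424 and 0.0223). ID2-AS1 went from 3, 3.53 and 5.5 CPM to 8.7, 7.57 and 9.48 CPM (1.10 ± 0.259, SE, edgeR adjusted p = 0.0278), and ID2 itself from 14.9, 18.4 and 33.6 CPM to 19.6, 19.7 and 20.9 CPM with no call. The log2 change of LBX2-AS1 was −0.98 (edgeR adjusted p = 0.0459) beside −1.16 for LBX2 (0.0507). MSC-AS1 and MSC, the gene of the basic helix-loop-helix repressor musculin, fell together (log2 changes −1.80 and −2.80, edgeR adjusted p = 0.0388 and 0.0257); MSC was at 48.6, 35.8 and 6.63 CPM in Control and 4.47, 4.76 and 3.79 CPM in HG, with Control 3 near the HG libraries.

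These calls rest on most of the libraries. That of NR2F2-AS1 was lost without any one HG library (edgeR adjusted p 0.0527 to 0.0695), that of NR2F1-AS1 without Control 2 or any one HG library (0.0608 to 0.0962), and that of NR2F2 without Control 1 (0.0551). Those of MEIS1-AS2, MEIS1, ID2-AS1, LBX2-AS1, MSC-AS1 and MSC were lost without any library other than Control 3 (0.0785 to 0.126, 0.0635 to 0.0836, 0.0695 to 0.0976, 0.054 to 0.149, 0.0705 to 0.116 and 0.0683 to 0.0942), and LBX2 was called without Control 3 (0.0304).

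SLC16A1-AS1, with a start 219 bases from that of the lactate transporter gene SLC16A1, went from 15.8, 15.2 and 10.5 CPM to 8.04, 7.12 and 9.13 CPM (log2 change −0.77 ± 0.205, SE, edgeR adjusted p = 0.0397; 0.0852 to 0.138 without any library other than Control 3). SLC16A1 was at 166, 196 and 143 CPM in Control and 169, 168 and 173 CPM in HG (edgeR adjusted p = 0.951).

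For 8 antisense symbols no row carries the name before -AS: TRG-AS1, DM1-AS, SPACA6P-AS, DARS-AS1, ZNF295-AS1, PGM5P3-AS1, TMEM246-AS1 and KRTAP5-AS1. Of these ZNF295-AS1 was called, at 1.73, 1.9 and 3.14 CPM in Control and 0.897, 0.912 and 0.911 CPM in HG (log2 change −1.31 ± 0.297, SE, edgeR adjusted p = 0.0243, or 0.0848 to 0.0877 without any one HG library). SRGAP2-AS1 lies 84804500 bases from the row of SRGAP2, so the pair shares a name and not a locus. Another 169 rows carry an antisense symbol and fell outside the rule, 57 of them because a coding transcript shares the row.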
